A study of Mus musculus with 6 samples.

Results

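The 210 peaks described here were ASH2L peaks that lay far from any annotated transcript start and carried H3K4me3. They were chosen by 3 measured or annotated properties. The ASH2L peak was on chromosomes 1 to 19, its midpoint was more than 2500 bp from every transcript start of GENCODE vM21, and it overlapped a peak of the H3K4me3 list by 1 bp or more. Of 2464 ASH2L peaks, 2452 were on these chromosomes and 695 of them were distal by this distance. An H3K4me3 peak overlapped 210 of the 695 distal peaks (30.2%, 95% Wilson interval 26.9% to 33.7%), against 1809 of all 2452 (73.8%). Seen from the other list, 212 of 36738 distal H3K4me3 peaks overlapped an ASH2L peak (0.577%). These shares follow from the selection and are given as background.

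The data were CUT&RUN profiles of E14 mouse embryonic stem cells grown in serum and LIF, in which an antibody directs a nuclease to its target and the released DNA is sequenced. The 6 samples formed 3 groups of 2, namely anti-HA in HA-ASH2L cells, anti-H3K4me3 in HA-ASH2L cells and anti-HA in parental wild-type cells, which were not analysed here. The HA-ASH2L genotype is labelled a knock-in, whereas the study's methods describe a doxycycline-dependent transgene in a line obtained by picking colonies. The antibody recognises the tag, so that untagged ASH2L is not measured. All groups carry the label of 48 h of doxycycline, with 1000000 cells for HA and 100000 for H3K4me3, whereas the study's methods give the first number for each experiment. The duplicates of each group were merged before the peaks were called, so that each peak has 1 value, the spread between samples cannot be given and no test between samples was possible. Medians are given with 95% intervals from order statistics and shares with 95% Wilson intervals. Both describe the number of peaks, which are not replicates.

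ASH2L is a core subunit of the MLL/SET1 family of histone H3 lysine 4 methyltransferases, together with WDR5, RbBP5 and DPY30. Trimethylation of this lysine, H3K4me3, is best known from active and CpG-rich promoters, and some of the complexes are directed there by subunits that bind unmethylated CpG. Away from promoters, H3K4me1 is the more usual mark of enhancers, and H3K4me3 there is mostly weak.

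The 300 bases round the ASH2L summit are shown for 9 of the 210 peaks, on the forward strand of GRCm38 (mm10) and from 5′ to 3′. In the first 7, capitals mark each CG. The first 3 are CpG-rich, in coding exons of Kank2 and Tal1 and in an intron of Rere. The next pair is CpG-poor, namely the other peak of Rere and the peak farthest from a start, whose nearest start is that of Fam196b. The last pair of the 7 is among the peaks with the highest ASH2L fold enrichment. In the window named after Abt1, capitals mark a tRNA-Val gene on the reverse strand. In the window of the first genome region that the study targeted with guide RNAs, they mark the matches of 2 guides with their PAMs.
Kank2 (chr9:21795287-21795586): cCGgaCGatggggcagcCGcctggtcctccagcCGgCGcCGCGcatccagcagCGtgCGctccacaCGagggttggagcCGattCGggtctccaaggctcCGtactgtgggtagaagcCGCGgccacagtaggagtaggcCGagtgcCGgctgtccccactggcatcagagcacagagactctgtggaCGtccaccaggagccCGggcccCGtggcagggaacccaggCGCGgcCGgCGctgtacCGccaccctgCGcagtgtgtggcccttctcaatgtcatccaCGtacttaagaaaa
Tal1 (chr4:115063359-115063658): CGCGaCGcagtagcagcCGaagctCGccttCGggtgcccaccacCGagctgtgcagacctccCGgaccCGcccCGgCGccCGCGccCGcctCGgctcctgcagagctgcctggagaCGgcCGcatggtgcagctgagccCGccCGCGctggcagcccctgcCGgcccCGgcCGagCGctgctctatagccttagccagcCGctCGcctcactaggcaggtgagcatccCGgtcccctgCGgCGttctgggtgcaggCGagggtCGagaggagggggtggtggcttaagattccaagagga
Rere (chr4:150371755-150372054): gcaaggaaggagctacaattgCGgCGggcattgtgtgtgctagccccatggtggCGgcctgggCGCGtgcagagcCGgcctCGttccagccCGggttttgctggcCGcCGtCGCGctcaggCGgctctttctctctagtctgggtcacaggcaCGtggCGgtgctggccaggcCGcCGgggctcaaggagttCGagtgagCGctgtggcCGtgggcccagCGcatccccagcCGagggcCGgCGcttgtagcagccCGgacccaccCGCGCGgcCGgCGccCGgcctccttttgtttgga
Rere (chr4:150591608-150591907): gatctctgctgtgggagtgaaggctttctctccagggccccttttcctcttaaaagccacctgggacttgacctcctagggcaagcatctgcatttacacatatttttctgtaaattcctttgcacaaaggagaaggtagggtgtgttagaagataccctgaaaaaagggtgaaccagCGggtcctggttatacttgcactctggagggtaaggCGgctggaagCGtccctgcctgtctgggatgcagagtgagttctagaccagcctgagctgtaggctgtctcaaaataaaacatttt
Fam196b (chr11:34494789-34495088): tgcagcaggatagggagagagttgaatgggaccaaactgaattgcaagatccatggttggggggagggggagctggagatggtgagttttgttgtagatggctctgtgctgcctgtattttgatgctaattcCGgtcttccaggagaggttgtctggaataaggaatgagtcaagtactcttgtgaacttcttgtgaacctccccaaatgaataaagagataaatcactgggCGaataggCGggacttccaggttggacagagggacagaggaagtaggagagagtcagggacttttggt
Gm28502 (chr15:75086689-75086988): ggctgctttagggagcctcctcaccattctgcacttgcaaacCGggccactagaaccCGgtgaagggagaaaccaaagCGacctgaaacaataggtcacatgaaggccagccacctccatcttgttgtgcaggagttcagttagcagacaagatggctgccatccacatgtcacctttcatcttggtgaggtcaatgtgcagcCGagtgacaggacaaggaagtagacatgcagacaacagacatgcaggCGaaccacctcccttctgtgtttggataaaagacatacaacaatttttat
Gm9075 (chr12:3109877-3110176): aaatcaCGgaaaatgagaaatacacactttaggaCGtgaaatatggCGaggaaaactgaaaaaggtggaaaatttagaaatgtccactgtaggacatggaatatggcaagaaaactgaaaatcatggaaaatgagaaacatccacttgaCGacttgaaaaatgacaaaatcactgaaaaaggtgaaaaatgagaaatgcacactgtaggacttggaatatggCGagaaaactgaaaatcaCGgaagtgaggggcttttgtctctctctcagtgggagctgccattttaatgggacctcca
Abt1 (chr13:23412039-23412338): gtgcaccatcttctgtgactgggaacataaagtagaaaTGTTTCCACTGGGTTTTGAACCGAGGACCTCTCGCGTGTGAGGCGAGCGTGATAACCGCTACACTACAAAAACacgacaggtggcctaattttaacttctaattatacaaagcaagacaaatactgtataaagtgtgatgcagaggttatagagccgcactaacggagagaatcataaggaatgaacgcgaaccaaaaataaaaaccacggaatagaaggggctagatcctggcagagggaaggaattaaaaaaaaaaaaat
Gm11797 (chr4:6093854-6094153): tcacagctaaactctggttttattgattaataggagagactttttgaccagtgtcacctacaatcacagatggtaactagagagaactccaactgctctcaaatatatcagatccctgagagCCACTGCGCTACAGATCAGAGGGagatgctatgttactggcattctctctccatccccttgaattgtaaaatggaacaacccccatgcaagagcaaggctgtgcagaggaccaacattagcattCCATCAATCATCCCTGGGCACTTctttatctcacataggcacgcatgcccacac

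The windows of Kank2 and Tal1 hold 27 and 31 CG dinucleotides, and those of the Rere pair 31 and 3. Over the 210 windows the number ranged from 0 to 58 with a median of 8, and 55 of the windows were CpG-rich.

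After removal of redundant tags, 25677963 tags entered the ASH2L calling and 27328071 the H3K4me3 calling. As a check of the cell type label, an H3K4me3 peak lay on a protein-coding start of 4 of 8 embryonic stem cell markers (Esrrb, Klf4, Zfp42 and Dppa4) and of 2 of 6 genes of other cells (Krt14 and Cd3e). The lists used here hold no such peak at Nanog, Sox2, Pou5f1 and Tdgf1, so that these markers do not settle the label.

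The distal ASH2L peaks with H3K4me3 were short, and many were close to the limit of detection. Their median length was 646 bp (interval 612 to 686) and they held a median of 27.5 tags (26 to 30, range 18 to 387). Distal ASH2L peaks without H3K4me3 had a median of 552 bp (543 to 566) and 24 tags (23 to 24). ASH2L peaks within 2500 bp of a start and with H3K4me3 had a median of 788 bp (771 to 802) and 36 tags (35 to 36). By length and tags the 210 peaks therefore lay between the other groups. The tag density was 43.2 tags per 1000 bp (42.6 to 43.7) in the 210 peaks and 42.5 (42.2 to 42.9) without H3K4me3, with overlapping intervals, and 44.8 (44.6 to 45.1) near starts, above both. The score of the peak caller is −log10 p times 10, and a peak needs 50 to be listed. The median score was 57.78, 81 of the 210 peaks scored under 55 and 13 scored 100 or more. The median fold enrichment over the local background was 5.29 (5.08 to 5.39), against 5.39 without H3K4me3 and 5.28 near starts.

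Within the H3K4me3 peak, the ASH2L peak was usually near the centre. All of the ASH2L peak lay inside the H3K4me3 peak in 177 of 210 cases, its summit did in 206, and 164 summits were in the middle 50% of the H3K4me3 peak. A peak that lies inside one not much longer is near its centre by geometry. The number to be expected from the lengths alone was not computed. The summits of the pair were a median of 201 bp apart (161 to 227), with 105 pairs at 200 bp or less and 15 at more than 1000 bp. The largest gap, 3336 bp, was in an H3K4me3 peak of 6199 bp in Ttll10. The smallest overlaps were 51, 92 and 214 bp. Each of the 210 ASH2L peaks had an H3K4me3 peak of its own, and 1 overlapped more than 1. On the other side of the selection, distal ASH2L peaks without H3K4me3 came as near as 39 and 44 bp to an H3K4me3 peak, and 28 of 485 were within 1000 bp of one. At the distance limit, the nearest peaks inside it were 2563 and 2630 bp from a start, and those with H3K4me3 just outside it 2474 and 2462 bp.

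The H3K4me3 peaks at distal ASH2L peaks were longer and had more tags than the distal H3K4me3 peaks without ASH2L. Their median length was 1833.5 bp (1670 to 1995, n = 210) against 1186 bp (1178 to 1193, n = 36526). Their median number of tags was 197 (168 to 220, range 19 to 1104) against 78 (77 to 79, range 19 to 1497). Per 1000 bp the medians were 99.3 tags (94.6 to 109) and 64.5 tags (64.1 to 64.8). The median fold enrichment did not follow, at 6.39 (5.94 to 6.87) against 6.46. Both distributions overlapped over nearly their full range.

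**Figure D1:**
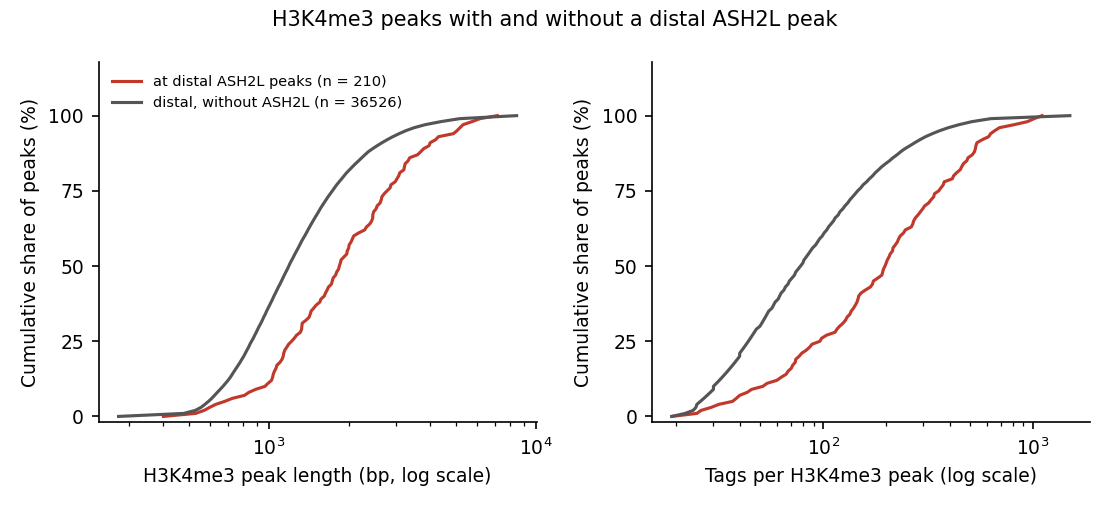
Cumulative share of H3K4me3 peaks (%) against their length in bp and their number of tags, both on log scales, for the 210 peaks at distal ASH2L peaks (red) and the 36526 distal peaks without ASH2L (grey). The red curves lie to the right, with medians of 1833.5 bp and 197 tags against 1186 bp and 78 tags.

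A longer H3K4me3 peak offers more bases that an ASH2L peak can overlap, so the selection itself favours length. The 212 distal H3K4me3 peaks that overlapped any ASH2L peak were used here, of which 204 are among the 210 above and 8 overlapped an ASH2L peak without being one of the 210. The share of distal H3K4me3 peaks with an ASH2L peak was 0.202% (0.139% to 0.293%) under 1000 bp and 0.588% (0.483% to 0.716%) from 1000 to under 2000 bp. It was 1.25% (0.989% to 1.57%) from 2000 to under 4000 bp and 1.64% (1.01% to 2.64%) at 4000 bp and over. Within a class of length, the tags could be compared with length nearly held. Under 1000 bp, the median was 38 tags both with and without ASH2L. From 1000 to under 2000 bp it was 136 with and 97 without, from 2000 to under 4000 bp 339 and 248, and at 4000 bp and over 635 and 560. The densities in these 4 classes were 48.0, 83.7, 127 and 130 tags per 1000 bp with ASH2L, and 48.4, 70.8, 96.2 and 114 without. The medians with ASH2L were higher in both classes from 1000 to under 4000 bp, with 98 and 71 peaks with ASH2L, and equal in the shortest one, with 27. The longest class held 16, and the 5 CpG-rich ones among them had a median of 595 tags and 128.2 per 1000 bp, against 646.5 and 128.6 without ASH2L.

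H3K4me3 peaks with a distal ASH2L peak were more often CpG-rich than those without. A 300-base window was called CpG-rich when its GC share was over 50% and its ratio of observed to expected CpG over 0.6. CpG-rich windows were found at 60 of 210 H3K4me3 summits with ASH2L (28.6%, 22.9% to 35.0%) and at 2566 of 36526 without (7.03%, 6.77% to 7.29%). Of the CpG-rich distal H3K4me3 peaks, 2.32% (1.81% to 2.97%) overlapped an ASH2L peak, against 0.443% (0.378% to 0.519%) of the others. In the class of 2000 to under 4000 bp these shares were 5.13% (3.66% to 7.15%) and 0.768% (0.563% to 1.05%), and from 1000 to under 2000 bp they were 1.94% (1.30% to 2.90%) and 0.484% (0.387% to 0.607%). Under 1000 bp, 1 of 743 CpG-rich peaks and 26 of 12648 others overlapped ASH2L, and no such difference was seen.

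**Figure D2:**
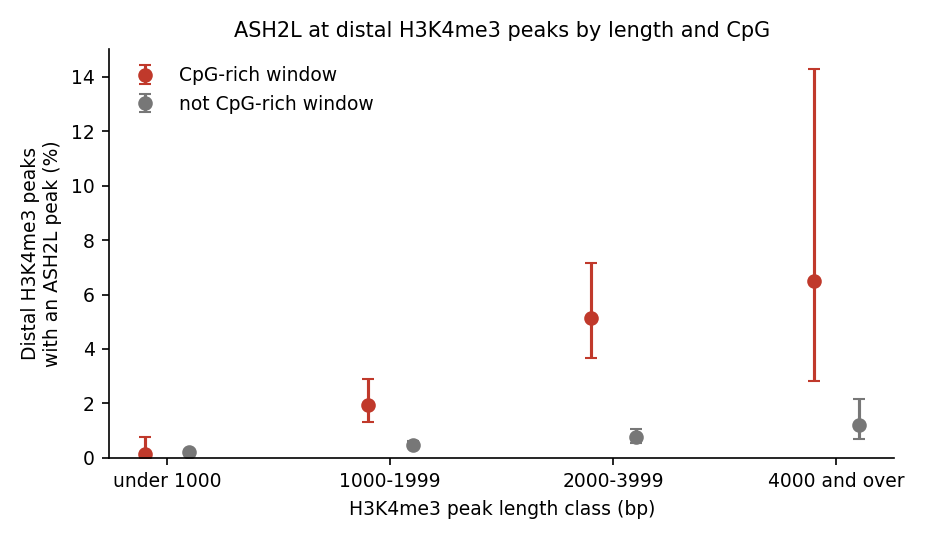
Share of distal H3K4me3 peaks (%) that overlapped an ASH2L peak, by class of H3K4me3 peak length in bp, for peaks with a CpG-rich (red) and another (grey) window at their summit. Points are shares and bars are 95% Wilson intervals; from 1000 bp up the CpG-rich share is the higher, for example 5.13% against 0.768% from 2000 to under 4000 bp.

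The same held on the ASH2L side. The median observed/expected CpG round the ASH2L summit was 0.403 (0.348 to 0.461) in the 210 peaks, 0.188 (0.176 to 0.204) in distal ASH2L peaks without H3K4me3 and 0.849 (0.840 to 0.864) near starts. CpG-rich windows made up 55 of 210 (26.2%, 20.7% to 32.5%), 6 of 485 (1.24%, 0.568% to 2.67%) and 1385 of 1599 (86.6%, 84.9% to 88.2%). The median GC share was 55.3%, 48.0% and 70.0%. The 155 distal peaks with H3K4me3 that were not CpG-rich still had a median of 0.292 (0.239 to 0.348), above that of distal ASH2L peaks without H3K4me3. CpG-rich ASH2L peaks also had the larger H3K4me3 peaks, with a median of 2539 bp (2031 to 3048) and 364 tags (279 to 452) for the 55, against 1602 bp (1418 to 1786) and 146 tags (126 to 181) for the 155.

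**Figure D3:**
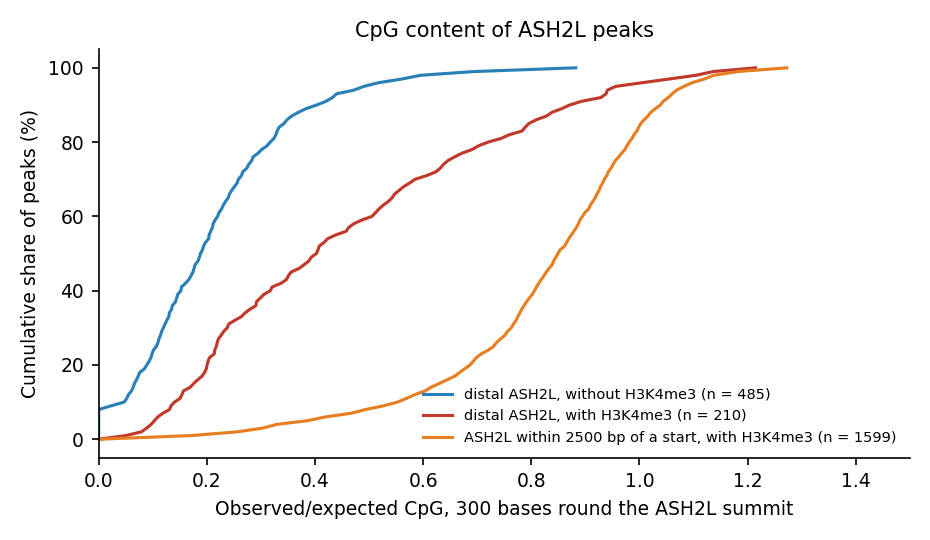
Cumulative share of ASH2L peaks (%) against the observed/expected CpG ratio of the 300 bases round their summit, for distal peaks without H3K4me3 (blue), distal peaks with H3K4me3 (red) and peaks near a start with H3K4me3 (orange). The red curve runs between the others, with medians of 0.188, 0.403 and 0.849 from left to right.

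Of 10 short motifs searched on both strands of the windows, the GC box GGGCGG, which SP and KLF factors bind, was the most frequent. It occurred in 63 of 210 windows (30.0%, 24.2% to 36.5%), in 5.57% (3.85% to 7.98%) of those of distal ASH2L peaks without H3K4me3 and in 71.8% (69.5% to 73.9%) near starts. At H3K4me3 summits it occurred in 37.6% (31.3% to 44.3%) with a distal ASH2L peak and in 19% (18.6% to 19.4%) without ASH2L. Its letters contain a CG, and among the 210 it was in 69.1% of the CpG-rich windows and in 16.1% of the others. The CTCF core AGGGGGC was found in 11.0% (7.41% to 15.9%) of the 210, 3.09% (1.88% to 5.04%) without H3K4me3 and 16.6% near starts. At H3K4me3 summits it was in 11.0% (7.41% to 15.9%) with a distal ASH2L peak and in 7.71% without ASH2L, inside that interval. The octamer ATTTGCAT, recognised by OCT4, was found in 5 of 210 windows (2.38%, 1.02% to 5.45%), and the ESRRB motif TCAAGGTCA in 2 (0.952%, 0.262% to 3.41%). Both had a share of 1.24% in distal ASH2L windows without H3K4me3, inside these intervals. At H3K4me3 summits the octamer was in 1.90% (0.743% to 4.79%) with a distal ASH2L peak and in 2.85% without ASH2L, and the ESRRB motif in 0.476% (0.0841% to 2.65%) and 1.43%, again inside the intervals. TATAAA was present in 9.52% (6.25% to 14.3%) of the 210 windows, 12.8% without H3K4me3 and 1.81% near starts. ETS, NRF1, YY1, CRE and E-box letters (CCGGAAG, GCATGCGC, AAGATGGC, TGACGTCA and CACGTG) were in 3.81% (1.94% to 7.34%), 0.952% (0.262% to 3.41%), 0.952% (0.262% to 3.41%), 0.476% (0.0841% to 2.65%) and 5.24% (2.95% to 9.13%) of the 210. Near starts their shares were 11.6%, 2.44%, 3.81%, 1.25% and 5.94%, so that those of ETS and YY1 were above the intervals of the 210. Distal ASH2L windows without H3K4me3 had 1.65%, 0%, 2.27%, 0.412% and 4.95%. At H3K4me3 summits, YY1 letters were in 2.38% (1.02% to 5.45%) with a distal ASH2L peak and in 4.14% without ASH2L, inside that interval.

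Distal ASH2L peaks with H3K4me3 were more often in coding exons than the other distal groups, and their interval held the share of ASH2L peaks near starts with H3K4me3 (18.3%, 16.5% to 20.3%). The midpoint was in a coding exon for 42 of 210 peaks (20.0%, 15.2% to 25.9%), in an intron for 79 (37.6%, 31.3% to 44.3%), between genes for 75 (35.7%, 29.5% to 42.4%) and in an exon without coding sequence there for 14 (6.67%, 4.01% to 10.9%). Only 4.54% (3.01% to 6.77%) of distal ASH2L peaks without H3K4me3 and 4.28% (4.07% to 4.49%) of distal H3K4me3 peaks without ASH2L were in coding exons. At the midpoint of the H3K4me3 peaks of the 210, which compares like with like for the last group, the share was 36 of 210 (17.1%, 12.6% to 22.8%). With ASH2L peaks at or above the median fold enrichment of their list, the share among 101 remaining peaks was 10.9% (6.19% to 18.5%). Conversely, 2.25% (1.63% to 3.10%) of distal H3K4me3 peaks in coding exons overlapped ASH2L, against 0.510% in introns and 0.456% between genes. For CpG-rich ones these were 5.12% (3.46% to 7.50%), 2.13% (1.32% to 3.43%) and 1.48% (0.948% to 2.30%), and for the others 1.06% (0.609% to 1.85%), 0.436% and 0.372%.

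**Figure D4:**
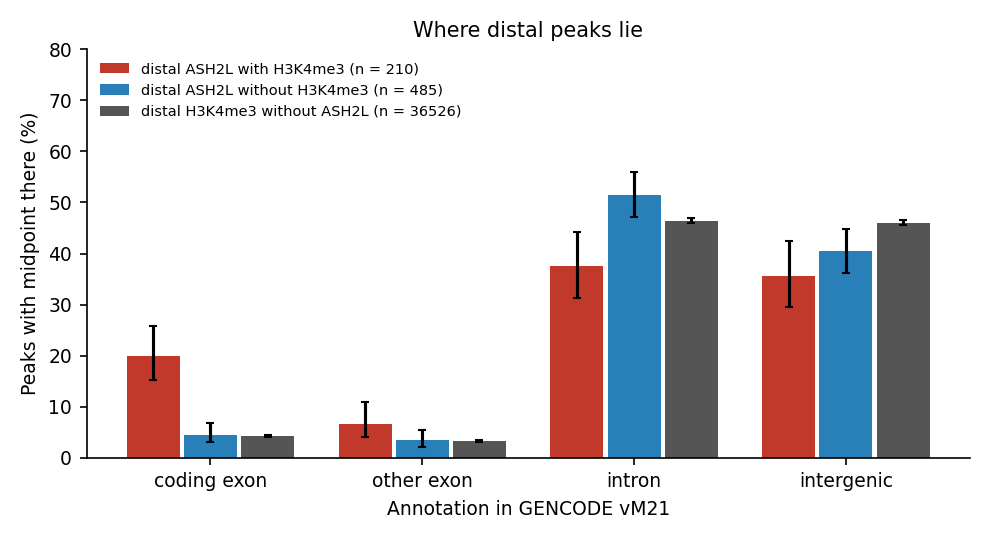
Share of peaks (%) with the midpoint in a coding exon, another exon, an intron or between genes of GENCODE vM21, for distal ASH2L peaks with H3K4me3 (red), distal ASH2L peaks without it (blue) and distal H3K4me3 peaks without ASH2L (grey). Bars are shares with 95% Wilson intervals, and the red bar stands above the others in coding exons at 20.0% against 4.54% and 4.28%.

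Of the 42 peaks in coding exons, 26 were CpG-rich, and they supplied 26 of the 55 CpG-rich peaks, with 9 in introns, 17 between genes and 3 in other exons. Their median length was 842.5 bp (728 to 894) with 36 tags (33 to 39), and their H3K4me3 peaks measured 2485.5 bp (1912 to 2862) with 313.5 tags (232 to 413). Their fold enrichment was low, with a median of 4.84 (4.46 to 5.24). The longest annotated exon at the midpoint had a median of 1622 bp (869 to 2340), against 604 bp (524 to 703) at the 1562 coding-exon H3K4me3 peaks without ASH2L and 942 bp (184 to 2822) at the 22 coding-exon ASH2L peaks without H3K4me3. The exon was the last of a transcript in 27 of 42 cases (64.3%, 49.2% to 77.0%) in 39.6% (37.2% to 42.0%) of the 1562 and in 40.9% (23.3% to 61.3%) of the 22. The intervals for the 42 and the 22 overlapped in both measures. The exon was taken at the ASH2L midpoint for the 42 and the 22, but at the H3K4me3 midpoint for the 1562.

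The coding-exon peaks named here were those with the most H3K4me3 tags and some of known developmental or signalling genes, the latter chosen after their values were seen. Kank2, a regulator of the cytoskeleton at cell adhesions, had the most, with 1104 tags over 6559 bp at exon 3 of 11, where the ASH2L peak held 38 tags at a score of 51.26. This H3K4me3 peak reached back over 3 transcript starts, and only its ASH2L peak was distal. In Ttll10 (nearest start Gm16008), of the tubulin ligase-like family, the H3K4me3 peak at exon 15 of 15 had 984 tags over 6199 bp and covered 2 starts. In Fbxl22, which encodes an F-box protein, the last of 2 exons had 852 H3K4me3 tags over 5150 bp and 35 ASH2L tags. The genes of the zinc finger factors Sp6 and Sp7, both with a peak in exon 2 of 2, had 638 and 279 H3K4me3 tags and 63 and 36 ASH2L tags. Grin1, an NMDA receptor subunit gene, had 413 H3K4me3 tags and 30 ASH2L tags at exon 4 of 20. Celsr3, of the atypical cadherins, had 434 and 36 tags at exon 35 of 36, and Ryr1, the ryanodine receptor gene of skeletal muscle, 193 and 32 tags at exon 14 of 109.

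Wide H3K4me3 peaks were found at other distal ASH2L peaks, too, and 13 of the 210 were 5000 bp or longer. The H3K4me3 peak nearest to the pseudogene Gm11726 was 7171 bp long with 1025 tags and lay 38225 bp (at the ASH2L midpoint) from the start of Socs3, an inhibitor of cytokine signalling. Its ASH2L peak was called from 41 tags at a fold enrichment of 3.68. In an intron of Pura, which encodes a nucleic acid binding protein, the H3K4me3 peak had 944 tags over 5798 bp and the ASH2L peak 65 tags at a score of 93.69. It lay 5912 bp from the GENCODE start of Pura but 661 bp from a RefSeq start of the same gene, so that it is distal by the first annotation only. In these examples a weak to moderate ASH2L peak sat in a large H3K4me3 peak. Over all 210 pairs, Spearman's rho across peaks was 0.25 for length, 0.12 for tags per 1000 bp and 0.29 for fold enrichment. The points are peaks of the same merged libraries, and no p is given. For 204 of the 210, the midpoint of the H3K4me3 peak was itself more than 2500 bp from a start, and 5 of the H3K4me3 peaks covered one.

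A fold enrichment of 10 or more was seen at 7 of 210 peaks (3.33%, 1.62% to 6.72%), 3 of 485 without H3K4me3 and 6 of 1599 near starts. The peak in an intron of Filip1l, which encodes a filamin-interacting protein, had 24.19 with 99 tags, and its H3K4me3 peak had 12.14. The upper of a pair of peaks upstream of the lincRNA Gm28502 had 22.21 with 146 tags, and 20.30 for H3K4me3. At an exon of Lars2, the gene of mitochondrial leucyl-tRNA synthetase, the values were 16.56 for ASH2L and 30.22 for H3K4me3. At the intergenic peak whose nearest start is that of the pseudogene Gm9075, 27430 bp away, they were 19.33 and 9.88, with only 51 bp shared between the peaks. An intron of Cdk8, the Mediator kinase gene, had 12.60 and 10.23, and an intron of Fbxw4, an F-box protein gene, had 11.96 and 8.74. The H3K4me3 fold enrichment at all 7 ranged from 8.74 to 30.22 with a median of 12.14, against 6.30 at the other 203. Soft-masked repeats covered 88.7% of the intergenic window named after Gm9075 and 89.3% of that in Fbxw4, and under 50% of each of the other 5. Copies of these windows elsewhere in the genome were not searched for. A low soft-masked share therefore does not show that a window is unique sequence. Without a control library in the peak calling, the part of sequence that gathers tags with any antibody was not tested. Leaving out the 7 moved Spearman's rho for fold enrichment to 0.22.

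**Figure D5:**
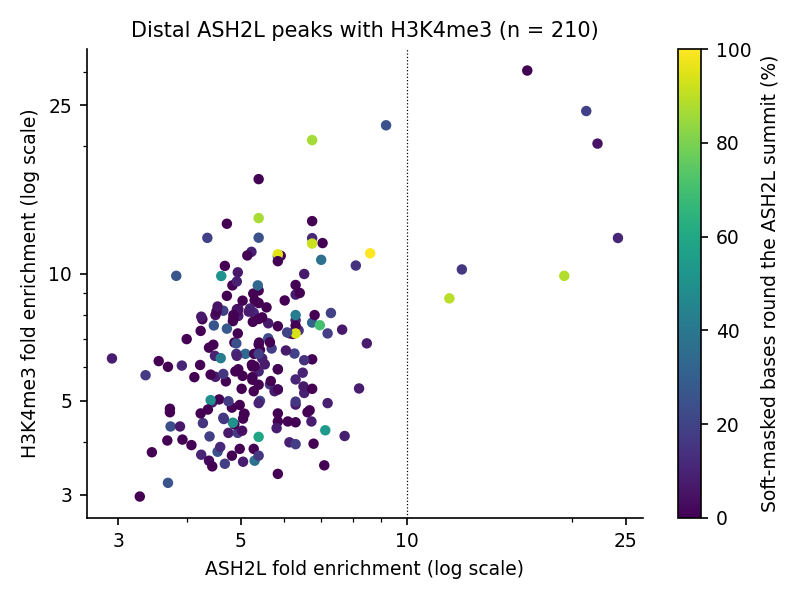
Fold enrichment of the H3K4me3 peak against that of the ASH2L peak, both on log scales, for the 210 pairs, coloured by the percentage of soft-masked bases in the 300 bases round the ASH2L summit. The dotted line marks an ASH2L fold enrichment of 10, and the 7 points to its right have H3K4me3 fold enrichments of 8.74 or more.

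The peak with the most ASH2L tags lay in an intron, 2955 bp upstream of the nearest start of Sp110, which encodes a nuclear body protein. It was the longest of the 210, at 2843 bp, with 387 tags and a score of 701.94, but its fold enrichment was 5.10. The H3K4me3 peak there was small, with 999 bp and 48 tags, and covered 35.1% of it. Repeats were less common in the 210 peaks than in the other distal groups and more common than near starts. Soft-masked bases made up over 50% of the window in 13 of 210 (6.19%, 3.65% to 10.3%), in 14.8% (12.0% to 18.3%) of distal ASH2L peaks without H3K4me3 in 13.9% (13.5% to 14.2%) of distal H3K4me3 peaks without ASH2L and in 0.625% (0.340% to 1.15%) of ASH2L peaks near starts. In the window named after Gm5185, 70257 bp from its start, soft-masked bases covered 95.7% of the window, which held 0 CG.

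Genes of tRNAs, looked for after the data were seen, are transcribed by RNA polymerase III and are absent from the start sites used here. Of 386 tRNA genes that RefSeq annotates on these chromosomes, 4 overlapped 3 of the 210 ASH2L peaks (1.43%, 0.487% to 4.12%). No tRNA gene overlapped the 485 distal ASH2L peaks without H3K4me3 or the 1599 near starts, and 70 of 36526 distal H3K4me3 peaks without ASH2L overlapped one (0.192%, 0.152% to 0.242%). On chromosome 13, the peak nearest to Abt1 spanned a tRNA-Val gene and the edge of a tRNA-Ala gene, with 67 ASH2L tags and 1014 H3K4me3 tags. The peak nearest to Gm11334, on the same chromosome, spanned another tRNA-Val gene with 77 and 917 tags. On chromosome 3, a tRNA-His gene was at the edge of the peak nearest to Gm43534, with 22 and 181 tags. The capitals of the Abt1 window above mark the first of these genes, 23412077 to 23412149.

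The distance to the nearest start was a median of 10429 bp (8957 to 12466) at the ASH2L midpoint, and 10635 bp (9124 to 12384) at the midpoint of their H3K4me3 peaks, against 13160.5 bp (12994 to 13330) for distal H3K4me3 peaks without ASH2L. Of the 210, 40 were within 5000 bp of a start, 60 from 5000 to 10000 bp, 99 from 10000 to 50000 bp and 11 farther away (5.24%, 2.95% to 9.13%), against 11.2% of distal H3K4me3 peaks without ASH2L and 15.5% (12.5% to 19%) of distal ASH2L peaks without H3K4me3. The farthest was in an intron of Dock2, 180126 bp from the start of Fam196b, with 25 ASH2L tags and 215 H3K4me3 tags. The next were 95663 bp from Gm13197, 85914 bp from Zfp993, 81962 bp from Gm15699 in the last exon of the cadherin gene Cdh20, 71080 bp from Gm6378 and 70257 bp from Gm5185. Distances depended on the annotation. By RefSeq starts, the peak in Dock2 lay 12007 bp from Gm29887, that of Gm13197 4218 bp from Camk1d and that of Zfp993 9678 bp from Gm20875, whereas the other 3 lay 77428, 75845 and 315100 bp from one, so that the order above holds for GENCODE only. A start of a RefSeq transcript or tRNA gene lay within 2500 bp of 22 of the 210 (10.5%, 7.02% to 15.4%), and within 500 bp of 11. The CpG-rich Rere peak shown above was among the latter, with a RefSeq start of Rere itself 500 bp away. For distal H3K4me3 peaks without ASH2L, the share with a RefSeq start within 2500 bp was 6.53%.

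The nearest start belonged to a protein-coding gene for 125 of the 210 (59.5%, 52.8% to 65.9%), to a processed pseudogene for 25 (11.9%) and to a lincRNA for 24 (11.4%). At the midpoints of their H3K4me3 peaks the protein-coding share was 60.0% (53.3% to 66.4%), against 53.5% (53.0% to 54.0%) for distal H3K4me3 peaks without ASH2L. The nearest protein-coding start was itself under an H3K4me3 peak for 62.9% (56.1% to 69.1%) of the 210 and for 66.1% of distal H3K4me3 peaks without ASH2L. An ASH2L peak was within 2500 bp of that start for 11.0% (7.41% to 15.9%) and 9.01%. In neither did the groups differ beyond the interval. The 210 peaks were spread over all 19 chromosomes, with 4 to 23 on each, and over 207 nearest genes, of which Rere, Gm28502 and Gm13009 had 2 peaks each. Another ASH2L peak was within 5000 bp of 4 of them and within 50000 bp of 54.

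Rere encodes an atrophin-family corepressor. Its CpG-rich peak had 37 ASH2L tags and 595 H3K4me3 tags over 4369 bp, and its CpG-poor peak 22 tags and 136 tags over 1631 bp. The pair at Gm28502 was 1231 bp apart, with 79 and 146 ASH2L tags and 135 and 168 H3K4me3 tags, and the window of the first was entirely soft-masked. The pair with Gm13009 as the nearest start, 7075 and 14216 bp away, was 7141 bp apart, with 25 ASH2L tags in each and 152 and 136 H3K4me3 tags.

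Among the 207 nearest genes, 3 were in the lists of pluripotency, lineage and chromatin genes. Of 28 pluripotency and embryonic stem cell genes, 1 was, namely Klf5, which encodes a factor of the pluripotency network. Its peak lay 14301 bp downstream of the start, with 23 ASH2L tags, a score of 51.57 and 202 H3K4me3 tags. Of 25 lineage regulators, 2 were. Neurog2, a regulator of neurogenesis, had 22 ASH2L tags and 230 H3K4me3 tags 7005 bp from its start. Tal1, a regulator of blood formation, had 37 and 200 tags in a coding exon 3858 bp from its start. None of 17 MLL/SET1 complex genes and of 70 replication-dependent histone genes was nearest to one. Of the 36526 distal H3K4me3 peaks without ASH2L, 42 were nearest to 16 of the pluripotency genes, 42 to 16 of the lineage regulators, 5 to 4 MLL/SET1 complex genes and 5 to 5 histone genes.

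The first of the genome regions that the study targeted with guide RNAs was among the 210. The ASH2L peak extended from 6093666 to 6094236 on chromosome 4, in an intron of Fam110b, 24077 bp from the nearest start, that of Gm11797. It held 22 tags at a score of 50.79 and a fold enrichment of 4.50, below the median of 27.5 tags and of 5.29 for the 210, and its H3K4me3 peak of 838 bp had 35 tags at a score of 75.49, against medians of 197 tags and 295.64. The window is CpG-poor, with 2 CG and an observed/expected CpG of 0.134. Its guides 1-1 and 1-3 matched the reverse strand at 6093979 to 6093998 and 6094103 to 6094122, as marked in the window, and guide 1-2 matched the forward strand just before it.

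The number of peaks depended on the thresholds of both lists. With H3K4me3 peaks at or above the median fold enrichment of their list, 104 peaks remained, or 15.0% of the distal ASH2L peaks. With such a limit on the ASH2L list, 101 remained.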

How the data were processed

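CUT&RUN was carried out by the authors in 6 samples, as duplicates. Per the methods and the submitters' processing notes, the authors mapped reads to mm10 with Bowtie2, used SAMtools 1.5, bedtools and HOMER 4.10, kept short fragments, merged duplicates and called peaks with MACS. Per the file headers, version 1.4.3 of MACS ran at a cutoff of 1e-05 without a control library. The headers give tag sizes of 151 and 142 bp, which are longer than the stated fragment limit, so that the fragments counted are not settled. The deposited tag counts are whole numbers of tags per peak, not normalized. The deposited score is a multiple of −log10 p from the authors' peak calling, with 50 at the cutoff. The deposited fold enrichment is a ratio to the background that the authors' software modelled from the same library. Tags are not compared between the lists, and intervals cover counting error only.

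Distances were computed from peak midpoints to 134417 GENCODE vM21 transcript starts. Where several H3K4me3 peaks overlapped, that with the most shared bases was used. CpG, motifs and soft-masked shares came from the 300 bases round a summit in GRCm38.p6. Overlaps and distances were tested on simulated peaks, and the GC share and observed/expected CpG on a short made-up sequence. Members and gene lists were chosen with earlier results of these data known. Named were the 6 peaks highest in score, in fold enrichment, in H3K4me3 tags and in distance, those nearest to a list gene, the 3 genes with most peaks and the guide region. Of these, 1 peak is left out of the text. Coding-exon examples and fold enrichments of 10 or more were chosen after the values were seen. Alternative distances, starts, overlaps and thresholds were tried. The software was Python 3.11.15 with pandas 2.3.3, numpy 2.4.6, pysam 0.24.0, scipy 1.17.1, samtools 1.23.1 and matplotlib 3.10.9.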

Additional observations from a re-analysis of the deposited data

How the results depend on the processing

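For 10 results, 119 alternative values were computed, and 104 stayed within 1.5 times the count or inside the 95% interval given in the report. With starts over 10000 bp away, 110 peaks remained, with a median length of 610 bp, 25 tags and 14.5% in coding exons. With protein-coding starts only, 34.4% of distal ASH2L peaks had H3K4me3, and the nearest start was that of a protein-coding gene in 100% by construction. With H3K4me3 peaks at or above the median fold enrichment, 104 peaks remained (15.0% of distal ASH2L peaks), with H3K4me3 peaks of 1432 bp. With ASH2L peaks at or above the median, 101 remained (25.3%), with a length of 594 bp, 25 tags, H3K4me3 peaks of 1566 bp and 10.9% in coding exons. The observed/expected CpG of the ASH2L windows, the CpG-rich share and the tags per 1000 bp of the H3K4me3 peaks moved under none of the 12 alternatives. RefSeq starts in addition and the omission of fold enrichments of 10 or more were tried after seeing the data, as were all alternatives for the coding-exon and CpG-rich shares. No paired analysis was possible because the duplicates were merged before the peaks were called, and no duplicate could be left out. With a median of 27.5 tags per peak and 81 of 210 scores under 55, many of the 210 lie near the cutoff, and how the list changes with depth was not tested.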
